A study of Canis lupus familiaris with 18 samples.

Results

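The cytosolic ribosomal proteins were taken as every gene whose single platform symbol was RPL or RPS followed by a digit, RPSA, or RPLP0, RPLP1 or RPLP2, with the S6 kinases (RPS6K) left out. This rule found 59 genes among the 15115 genes that had a single symbol on the array. They comprised 37 proteins of the large subunit, 21 of the small subunit and RPS19BP1, a nucleolar protein that binds RPS19 and that the rule takes in by its symbol. The 59 genes were read by 121 probe sets, 27 of them by 1 probe set and 32 by several, and the probe set of highest mean signal stood for its gene. After the filter on low signal 58 genes were left to test, beside 10988 of all genes; RPL37A, with a mean log2 signal of 4.90, did not pass it. RPL3 and RPSA were found only on probe sets that carry several symbols, and RPS6, RPL11, RPL36A, RPL39 and RPL39L had no single-symbol probe set in the annotation used, so these genes were not analysed here.

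Each cytosolic ribosome joins a small subunit, which decodes the mRNA, to a large subunit, which forms the peptide bond, and its proteins are made in near equal numbers. Most of their mRNAs begin with a terminal oligopyrimidine (TOP) tract, through which the mTORC1 kinase pathway controls their translation, and in heart muscle ribosome content is known to grow with hypertrophy. A few of the proteins have a second gene with its own tissue pattern; RPL3L, which takes the place of RPL3 in ribosomes of heart and skeletal muscle, is the best known of these.

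The samples were total RNA from pieces of right atrium (RA) and right ventricle (RV) of adult mongrel or beagle dogs, 3 arrays in each of 6 groups (18 in all). In each chamber 1 group came from control dogs, 1 from dogs in early heart failure (HF), paced rapidly from the ventricle for 2 weeks, and 1 from dogs in late HF, paced for 5 weeks; the treatment protocol widens these times to 2 to 3 and 5 to 6 weeks. The labels do not say whether controls carried a pacemaker, which breed a dog was, or which arrays came from 1 animal. The replicates are called biological without naming separate dogs, so every p given here reflects only how much these arrays vary, which may in part be technical. The tissue is bulk heart, in which fewer cells of a type and less RNA per cell cannot be told apart.

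Signal was deposited for each probe set on a log2 scale, so a difference of 1 is a doubling of signal, and signals of different probe sets are not compared as amounts of RNA. Array medians lay between 5.65 and 5.75. The labelled chamber was checked on the myosin light chains. In RA controls the atrial chain MYL4 lay between 13.98 and 14.03 and the ventricular chain MYL2 between 6.04 and 9.38, and in RV controls MYL4 lay between 7.89 and 10.39 and MYL2 between 14.13 and 14.17. The library labelled RA late HF 3 stood apart, with MYL2 at 14.17, MYL3 at 13.89 and MYL4 at 11.65. On the other RA HF arrays MYL2 lay between 9.73 and 12.06, above every RA control, with MYL4 between 13.88 and 14.05. RV late HF 1 also differed from its group, with MYL2 at 12.76 and MYL3 at 12.35, beside 14.26 and 14.35 and 13.85 and 13.89 on the other arrays. RA late HF 3 is kept under its label, and the counts, medians and calls that it moves are also given without it; it enters comparisons of other groups through the shared estimate of spread.

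Over the 18 arrays most of the 58 genes varied together. The correlation (Pearson's r) of a gene with the median of the other 57 was 0.8 or more for 43 genes and 0.9 or more for 25, with a median of 0.89, and the median was 0.89 again within groups, after each group's mean was removed. These correlations are a description: the genes share the arrays, 43 of them lie in the highest 1% of mean signal, and probe sets of similar sequences can share transcripts. RPL3L (r = -0.64) and RPL22 (r = -0.23) had negative values, and RPL7L1, RPL10L, RPS4X, RPL26L1, RPS19BP1, RPL26 and RPS10 lay between 0.00 and 0.39. The median log2 signal of the 58 genes on an array was 11.94 ± 0.07 (SD, n = 3) in RA control and 11.62 ± 0.10 (SD, n = 3) in RV control. In RV control it ran from 11.52 to 11.71, and no RV control array reached the lowest RA control value of 11.87. It was 11.96 ± 0.07 (SD, n = 3) in RA early HF, 11.80 ± 0.18 (SD, n = 3) in RV early HF and 11.86 ± 0.11 (SD, n = 3) in RV late HF. On the 2 other RA late HF arrays it was 12.29 and 12.04, beside 11.68 on RA late HF 3. The group mean was lowest in RV control for 48 of the 58 genes and highest in RA late HF for 29. The largest SD within a group lay in RA late HF for 47 genes, where RA late HF 1 had 54 genes above their own mean over all arrays and RA late HF 3 had 5.

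**Figure D1:**
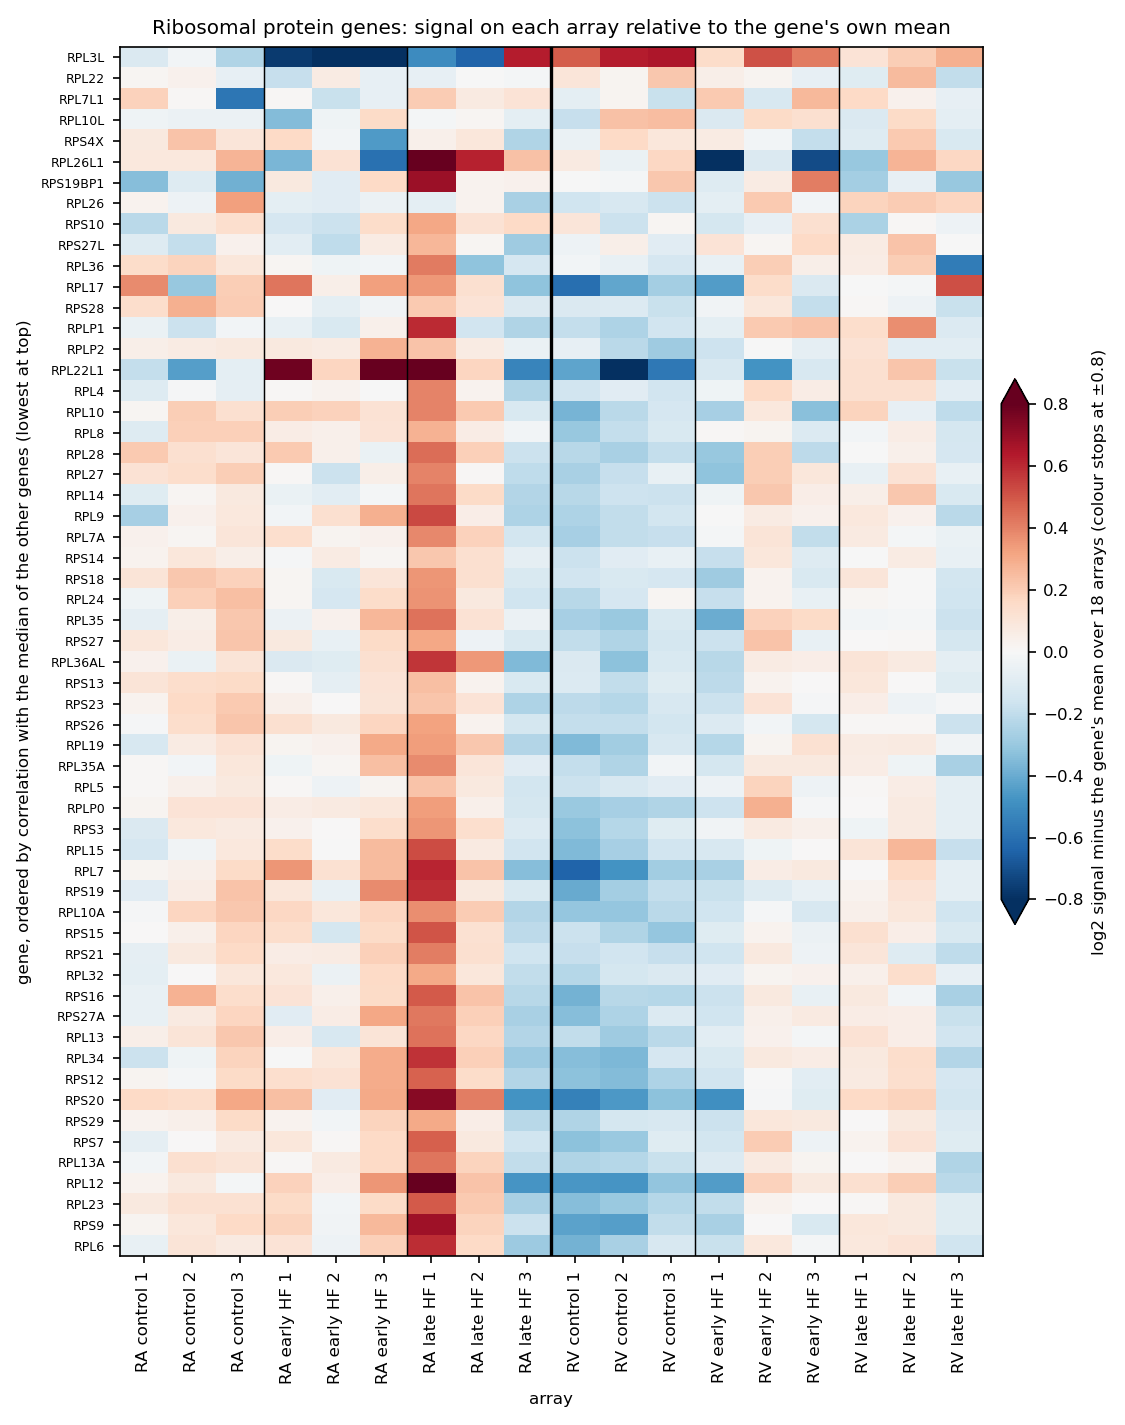
Heat map of the 58 tested genes (rows, ordered by their correlation with the median of the other genes) on the 18 arrays (columns, grouped by chamber and stage); colour is log2 signal minus the gene's own mean. The RV control columns are below the mean for most genes, RA late HF 1 is above it for 54 genes, and RPL3L in the top row runs the other way.

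The first comparison asked how the chambers differ in control dogs. Of the 58 genes, 52 had a positive RA minus RV difference, with a median of 0.27 on the log2 scale (1.20-fold), beside 44.7% of all genes tested with a positive difference and a median of -0.02. No gene of the 58 passed limma's adjusted p of 0.05 in either direction, where 1.62% of all genes passed as higher and 1.07% as lower in RA. At an unadjusted p under 0.05, 28 of the 58 had a higher mean in RA and 1, RPL3L, a lower one, beside 7.95% and 8.09% of all genes. The arrays of the 2 chambers did not overlap for 39 genes higher in RA and for RPL3L and RPS19BP1, which were lower, beside 12.8% and 14.5% of all genes. The small subunit had 20 of 21 genes positive with a median of 0.29, and the large subunit 32 of 36 with a median of 0.26.

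The genes of smallest p in this comparison were RPS28, a small subunit protein, and RPL10A, a large subunit protein. The RPS28 signal was 12.59, 12.73 and 12.65 on the RA control arrays and 12.33, 12.34 and 12.27 on the RV control arrays. Every RA value was above every RV value, and the difference was 0.34 (SE 0.10, limma adjusted p = 0.0678). For RPL10A the signal was 12.60, 12.78 and 12.82 in RA controls and 12.30, 12.30 and 12.39 in RV controls. These also did not overlap, at a difference of 0.40 (SE 0.12, limma adjusted p = 0.0937). The labels pair no arrays, and same-numbered RA and RV control arrays were taken as pairs because they deviated together in these data. With the assumed pair as a block, RPL10A had a limma adjusted p of 0.0439. It was the only gene of the 58 called, beside 3.74% of all probe sets called in either direction. The block removes the shared deviation by which the pairs were chosen, so this p is not separate support.

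Wider differences with wider spread were seen for RPS20, at 12.13, 12.11 and 12.28 in RA controls and 11.43, 11.51 and 11.64 in RV controls (difference 0.65, SE 0.22, limma adjusted p = 0.137), and for RPL7, at 11.83, 11.85 and 11.96 in RA controls against 11.17, 11.33 and 11.53 in RV controls (0.54, SE 0.18, limma adjusted p = 0.12). Neither pair of groups overlapped, and RPS20 was chosen for description after its values were seen. When RA late HF 3 was left out, the differences between controls were the same by construction, the estimate of spread was smaller, and 9 genes passed as higher in RA (RPL10A, RPL13, RPL23, RPL7, RPS12, RPS20, RPS23, RPS28 and RPS9) and RPL3L as lower, beside 3.26% and 2.11% of all genes. At an unadjusted p under 0.05 it was then 37 higher and 2 lower, beside 9.23% and 8.96%. Fitted on the 2 control groups alone, limma called 23 genes higher and RPL3L lower, beside 8.40% of all probe sets called in either direction.

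Other measures also differed between the chambers. Of 13 tested fibroblast markers, 12 had a positive RA minus RV control difference with a median of 1.00, and their mean log2 signal was 9.19 to 9.35 in RA controls and 8.35 to 8.54 in RV controls. Adipocyte markers had 8 of 11 positive with a median of 1.25, at a mean of 7.93 to 8.45 against 6.87 to 7.41. The 3' minus 5' signal of the array's EF1A control probe sets was 9.28 to 9.58 in RA controls and 8.01 to 8.28 in RV controls, while that of GAPDH was 1.15 to 1.61 and 1.05 to 1.25. EEF1A1, the EF1A gene, itself had an RA minus RV control difference of 1.31. The EF1A measure was not separated from the level of that mRNA. The part of each of these in the chamber difference was not tested. Array signals have no zero, so no marker can be called absent.

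RPL3L was the 1 gene of the 58 called in any comparison by the fit of 6 group means to all 18 arrays, without a replicate block or array weights. Its signal was 10.25, 10.34 and 10.12 on the RA control arrays and 10.85, 10.99 and 11.01 on the RV control arrays. In early HF it was 9.60, 9.42 and 9.55 in RA and 10.51, 10.87 and 10.78 in RV. In late HF it was 9.86, 9.72 and 10.99 in RA and 10.47, 10.56 and 10.65 in RV. RA arrays lay below RV arrays of the same stage throughout, except RA late HF 3, which lay at the level of the RV controls.

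In early HF RPL3L was lower in RA than in RV, by -1.20 (SE 0.23), a signal ratio of 0.436 (limma adjusted p = 0.00756); 1 of the 58 genes was thus called lower and 0 higher, beside 2.59% and 3.00% of all genes. The 2 further RPL3L probe sets gave -1.36 and -1.37 (limma adjusted p = 0.00491 and 0.00935); they read the same RNA and are not replicates. In controls the RA minus RV difference was -0.71 (SE 0.23, limma adjusted p = 0.106), and in late HF it was -0.37 (SE 0.23, limma adjusted p = 0.525). With RA late HF 3 left out the 3 differences were -1.20, -0.71 and -0.77, and all passed (limma adjusted p = 7e-06, 0.000676 and 0.00233); RPL3L was the only gene of the 58 called in early HF, beside 5.13% of all genes called higher and 3.61% lower.

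Across stages in RA, RPL3L in early HF lay below control on every array, by -0.71 (SE 0.23, limma adjusted p = 0.141), and without RA late HF 3 this difference passed (adjusted p = 0.00385). Its late HF difference from RA control was -0.05 (SE 0.23), with overlapping arrays, and -0.45 (limma adjusted p = 0.0694) without RA late HF 3. Late HF lay above early HF in RA on every array, by 0.67 (SE 0.23, limma adjusted p = 0.469), and by 0.27 (limma adjusted p = 0.569) without that array. In RV it was -0.23 (SE 0.23) in early HF and -0.39 (SE 0.23) in late HF (limma adjusted p = 0.885 and 0.609), and the late HF arrays did not overlap with the RV controls. The difference between chambers in the early HF effect was -0.48 (SE 0.32, limma adjusted p = 0.998), so an unequal effect in RA and RV was not shown.

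**Figure D2:**
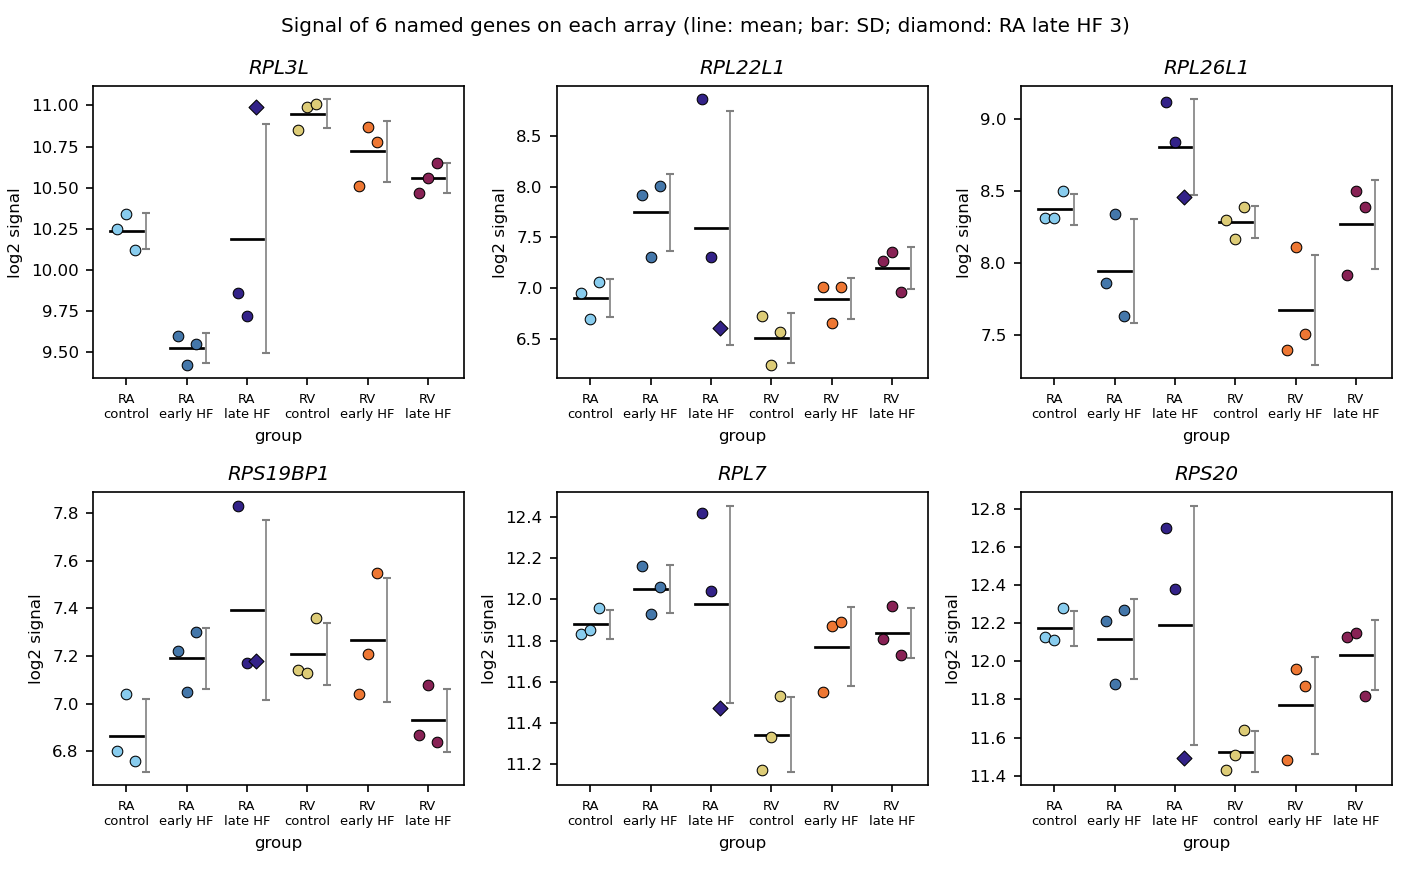
Log2 signal of 6 genes on each array in the 6 groups, with the mean (line), the SD of 3 arrays (bar) and RA late HF 3 as a diamond; each panel has its own axis, which does not start at 0. RPL3L is highest in RV control and lowest in RA early HF, and on RA late HF 3 it reads 10.99 beside 9.86 and 9.72 on the other arrays of that group.

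In the right ventricle most of the 58 genes had a higher mean in HF than in control at both stages, and limma called no single gene. In early HF 52 genes had a positive difference, with a median of 0.18 (1.13-fold), beside 47.0% of all genes and a median of -0.01. In late HF it was 50 genes with a median of 0.19 (1.14-fold), beside 46.6% and -0.01. Both differences are taken against the same 3 RV control arrays. The HF arrays were not shifted alike. On RV early HF 1 the median of the 58 genes was 11.61, inside the RV control range of 11.52 to 11.71. It was 11.96 and 11.84 on the other early HF arrays, and 11.93, 11.91 and 11.73 in late HF. Genes above their own mean over all arrays numbered 6 on RV early HF 1 and 4 on RV late HF 3, beside 4 to 8 on RV controls. No gene of the 58 passed limma's adjusted p of 0.05 at either stage, where 0.0910% of all genes passed as higher and 0.00910% as lower in early HF, and 0% in each direction in late HF. At an unadjusted p under 0.05, 3 of the 58 had a positive and 1 a negative difference in early HF (3.90% and 4.44% of all genes), and in late HF 10 had a positive and 0 a negative one (4.30% and 4.80%). Arrays did not overlap for 22 positive and 1 negative gene in early HF (7.02% and 8.98% of all genes) and for 26 and 2 in late HF (9.48% and 10.5%). Leaving out RA late HF 3 gave the same medians and called none of the 58, beside 0.382% of all genes called higher and 0.146% lower in early HF and 0.118% and 0.0364% in late HF. At an unadjusted p under 0.05 it then gave 11 positive and 1 negative in early HF (4.95% and 5.31% of all genes) and 23 and 1 in late HF (6.07% and 5.72%). Without RV late HF 1 the late HF median was 0.16, with 52 genes positive and none called.

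Among the genes of smallest p in RV was RPLP0, which anchors the stalk that brings elongation factors to the ribosome. It read 11.48, 11.51 and 11.54 in RV controls, 11.61, 12.06 and 11.77 in early HF and 11.78, 11.85 and 11.70 in late HF. All 6 HF arrays were above the controls, with differences of 0.30 (SE 0.12, limma adjusted p = 0.455) and 0.27 (SE 0.12, limma adjusted p = 0.527). The other stalk proteins had differences of 0.32 and 0.33 (RPLP1) and 0.11 and 0.17 (RPLP2) at these stages, none of them called. RPL7 in early HF read 11.55, 11.87 and 11.89, above its RV controls on every array (0.43, SE 0.18, limma adjusted p = 0.5), and in late HF 11.81, 11.97 and 11.73 (0.49, SE 0.18, limma adjusted p = 0.455).

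RPL26, a large subunit protein, had the smallest p in late HF. It read 9.56, 9.59 and 9.55 in RV controls and 9.90, 9.92 and 9.89 in late HF. The groups did not overlap and differed by 0.34 (SE 0.11, limma adjusted p = 0.432). RPL17 read 8.75, 8.94 and 9.08 in RV controls and 9.35, 9.34 and 9.87 in late HF, a difference of 0.60 (SE 0.21, limma adjusted p = 0.455). This value depends on the probe set: a second RPL17 probe set, without the suffix _s_at, _x_at or _a_at, gave -0.05. A further one, with the suffix _s_at, gave 0.11 (limma adjusted p = 0.891). RPL3L and RPS19BP1 were the 2 genes whose late HF arrays all lay below the RV controls.

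Marker lists of other cell types were read in the same RV comparisons. All 13 fibroblast markers tested had a positive difference at both stages, with medians of 0.45 in early and 0.79 in late HF, and their mean signal was 8.35 to 8.54 in RV controls, 8.76 to 9.08 in early and 9.13 to 9.46 in late HF. Macrophage markers were positive for 9 and 11 of 12, with medians of 0.11 and 0.43, and adipocyte markers for 9 and 10 of 11, with medians of 0.40 and 0.32. Atrial myocyte markers were positive for 8 and 7 of 9, with medians of 0.09 and 0.42, and their mean signal was 7.57 to 8.07 in RV controls, 7.70 to 8.13 in early and 8.16 to 8.43 in late HF. Among them the atrial chain MYL7 read 11.99 ± 0.31 (SD, n = 3) in RV controls, 12.03 ± 0.25 in early and 12.81 ± 0.21 in late HF, where no late HF array overlapped with the controls. With all arrays none of the markers in these 4 lists passed in RV. Without RA late HF 3 the fibroblast marker LUM (1.15 with all arrays) and the macrophage marker CTSS (1.59) passed in late HF. Their limma adjusted p were then 0.0264 and 0.0267, beside 0.118% of all genes called higher. The EF1A 3' minus 5' signal was 8.19 to 8.76 in early and 8.51 to 8.86 in late HF, beside 8.01 to 8.28 in controls. Their part in the shift of the ribosomal protein genes was not tested. In RA early HF fibroblast markers were positive for 13 of 13, with a median of 0.93, where the ribosomal protein genes had a median of 0.01. Within RA late HF, array 1 had the highest mean fibroblast signal, 10.79, and the highest ribosomal median, 12.29. RA late HF 3 had the lowest of both, 8.74 and 11.68. How the marker and ribosomal values relate was not tested.

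**Figure D3:**
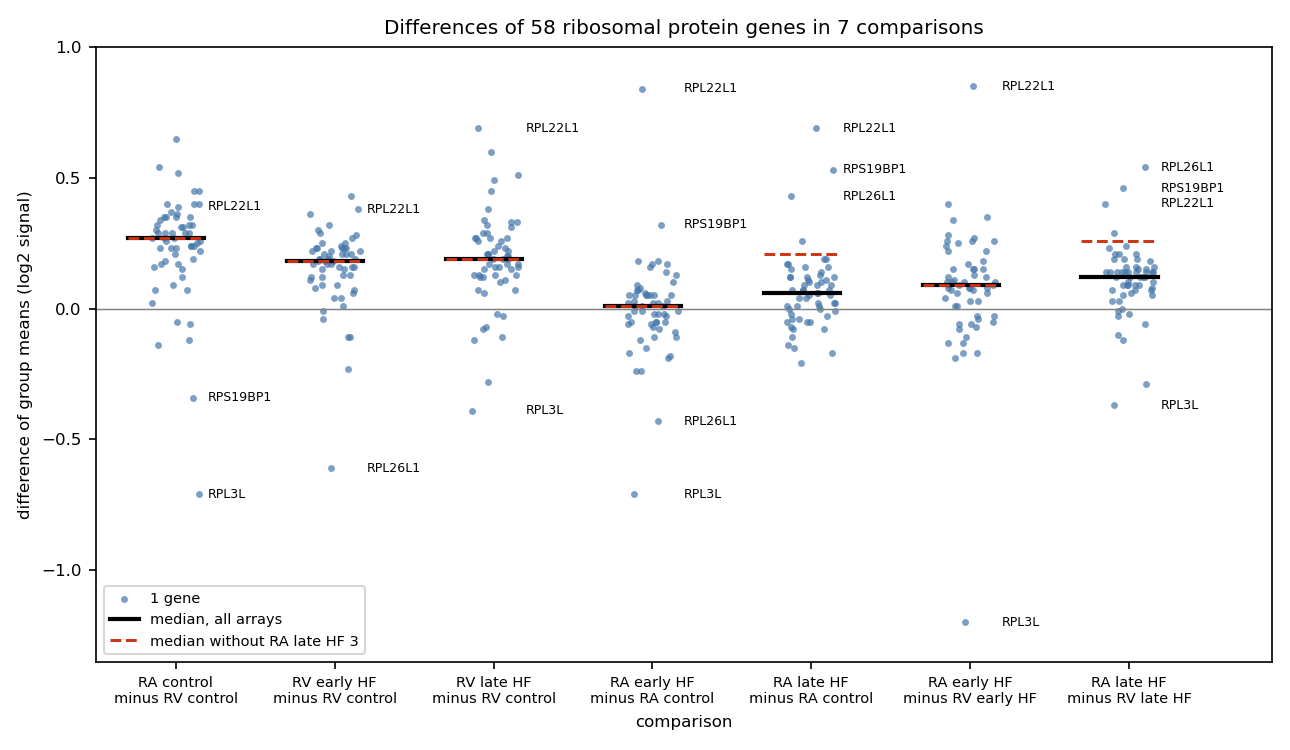
Differences of group means (log2 signal) of the 58 genes in 7 comparisons, 1 point per gene, with the median over genes from all arrays (black) and without RA late HF 3 (red, dashed). The medians are 0.27 in controls (RA minus RV), 0.18 and 0.19 for HF in RV, and 0.01 and 0.06 for HF in RA; RPL3L lies apart from the other genes at -1.20 in early HF (RA minus RV).

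In the right atrium the 58 genes were split between both signs in early HF. Of them 30 had a positive difference from control, with a median of 0.01, beside 45.6% of all genes and a median of -0.02. None passed limma's adjusted p of 0.05, where 0.291% of all genes passed as higher and 0.455% as lower, and at an unadjusted p under 0.05 RPL22L1 had a positive and RPL3L and RPS28 a negative difference, beside 6.08% and 6.93%. RPS28 read 12.45, 12.37 and 12.42 in RA early HF, below all RA controls (-0.24, SE 0.10, limma adjusted p = 0.253). Without RA late HF 3, RPL3L alone of the 58 passed, beside 1.63% of all genes called higher and 1.37% lower.

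In late HF the RA result rested on single arrays. With all 3 arrays, 40 genes had a positive difference from RA control with a median of 0.06 (48.8% of all genes positive), and none passed limma's adjusted p of 0.05, where 0.0182% of all genes passed in each direction; at an unadjusted p under 0.05 RPS19BP1 had a positive difference (0.53, SE 0.17, limma adjusted p = 0.256) and no gene a negative one, beside 5.96% and 4.00% of all genes. Without RA late HF 3 the median was 0.21, with 52 genes positive (45.1% of all genes) and none called, beside 1.04% of all genes called higher and 0.218% lower, and at an unadjusted p under 0.05 it was 21 positive and 1 negative, RPL3L (11.4% and 6.37% of all genes). Leaving out RA late HF 1 instead gave a median of -0.08. Late minus early HF in RA had a median of 0.05 with 42 genes positive (52.2% of all genes), 0.19 with 57 positive without RA late HF 3 (50.9% of all genes), and -0.11 without RA late HF 1. In RV, late minus early HF had a median of 0.02 with 34 positive (49.8% of all genes). No gene of the 58 and none of all genes (0%) passed limma's adjusted p in either of these comparisons of stages, and none did without RA late HF 3 (0%). At an unadjusted p under 0.05, RPL26L1 and RPL3L had a positive late minus early difference in RA (5.73% of all genes positive and 2.00% negative), and RPL26L1 had one in RV (2.28% and 2.93%). Without RA late HF 3 it was 12 positive and 0 negative in RA (6.45% and 2.07%).

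The chambers were also compared within each HF stage. RA minus RV had a median of 0.09 in early HF (43 genes positive, 42.4% of all genes) and 0.12 in late HF (50 positive, 50.8% of all genes). In late HF none of the 58 passed limma's adjusted p, where 0.0182% of all genes passed as higher and 0.00910% as lower, with 3 positive and 1 negative at an unadjusted p under 0.05 (5.20% and 5.83% of all genes). The smallest p were those of RPS19BP1 (0.46, SE 0.17, limma adjusted p = 0.348) and RPL26 (-0.29, SE 0.11, limma adjusted p = 0.378). The late HF median was 0.26 without RA late HF 3, with 55 positive (47.0% of all genes), 0 called higher (1.98% of all genes) and RPL3L called lower (0.919%), and at an unadjusted p under 0.05 it was 34 positive and 1 negative (12.1% and 8.94%). The difference between chambers in the HF effect, RA minus RV, had a median of -0.17 in early HF with 5 genes positive (49.0% of all genes), and of -0.15 in late HF with 9 positive (53.1% of all genes). Limma called no gene of the 58 in either interaction (0% of all genes), with or without RA late HF 3. At an unadjusted p under 0.05, RPS28 and RPL26 had a negative early HF interaction (2.14% of all genes positive and 3.01% negative), and in late HF RPS19BP1 had a positive and RPL26 a negative one (3.76% and 3.54%). The late HF interaction median was -0.01 without RA late HF 3, with 27 positive (52.7% of all genes), while the early HF median was again -0.17, with 0 positive and 5 negative at an unadjusted p under 0.05 (3.00% and 3.49% of all genes). The same control arrays enter the chamber difference in controls and both interactions.

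The interaction genes of smallest p had HF differences of opposite sign in the chambers. RPL26 read 9.75, 9.68 and 10.05 in RA controls, 9.64, 9.63 and 9.67 in RA early HF and 9.64, 9.75 and 9.46 in RA late HF, against the RV values above and 9.64, 9.93 and 9.70 in RV early HF. Its interaction was -0.37 (SE 0.16, limma adjusted p = 0.865) in early and -0.55 (SE 0.16, limma adjusted p = 0.524) in late HF. RPS19BP1 read 6.80, 7.04 and 6.76 in RA controls and 7.83, 7.17 and 7.18 in RA late HF, against 7.14, 7.13 and 7.36 in RV controls and 6.87, 7.08 and 6.84 in RV late HF. All RA late HF arrays were above their controls and all RV late HF arrays below theirs, and the interaction of 0.81 (SE 0.23) did not pass (limma adjusted p = 0.524, and 0.528 without RA late HF 3). RPS28 had an early HF interaction of -0.34 (SE 0.14, limma adjusted p = 0.831).

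The duplicate forms are genes that resemble another ribosomal protein gene. Of the 7 measured, 3 had a positive RA minus RV control difference, with a median of -0.05. RPL22L1, the second form of RPL22, had the largest SD within a group of the 58 genes, 1.15 in RA late HF. It read 6.95, 6.70 and 7.06 in RA controls, 7.92, 7.31 and 8.01 in RA early HF and 8.86, 7.31 and 6.61 in RA late HF. The early HF arrays lay above all RA controls, by 0.84 (1.79-fold, SE 0.37, limma adjusted p = 0.316), and fitted on RA control and RA early HF alone it passed together with RPL3L. In RV it read 6.72, 6.24 and 6.57 in controls and 7.27, 7.36 and 6.96 in late HF, without overlap (0.69, SE 0.37, limma adjusted p = 0.588). RPL22 itself lay between 6.15 and 6.60 on all arrays, with HF differences from -0.12 to -0.02. Its probe set lay at percentile 64.2 of mean signal, where 43 of the 58 genes lay in the highest 1%. The other RPL22 probe set, at a mean of 4.67, did not pass the filter. How well either follows the RPL22 mRNA was not tested.

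RPL26L1, the second form of RPL26, had the lowest group mean of each chamber in early HF. It read 8.31, 8.31 and 8.50 in RA controls, 7.86, 8.34 and 7.63 in RA early HF and 9.12, 8.84 and 8.46 in RA late HF. In RV it read 8.30, 8.17 and 8.39 in controls, 7.40, 8.11 and 7.51 in early HF and 7.92, 8.50 and 8.39 in late HF. The RV early HF arrays all lay below the RV controls (-0.61, SE 0.22, limma adjusted p = 0.374), and the RA late HF arrays all lay above RA early HF (0.86, SE 0.22, limma adjusted p = 0.357). Late minus early HF in RV was 0.60 (SE 0.22, limma adjusted p = 0.796), and late HF minus control in RA 0.43 (SE 0.22, limma adjusted p = 0.455). None of these differences passed, with or without RA late HF 3.

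RPL36AL had HF differences between -0.06 and 0.22, and 0.43 (limma adjusted p = 0.0853) in RA late HF without RA late HF 3. RPS27L lay between 11.87 and 12.42, and its partner RPS27 between 11.52 and 12.07, with RA minus RV control differences of -0.06 (SE 0.12) and 0.32 (SE 0.12, limma adjusted p = 0.186). RPL10L, a form known from testis, lay between 5.32 and 5.91 with HF differences from -0.11 to 0.02, while RPL10 had an RA minus RV difference of 0.35 in controls and 0.34 in early HF (limma adjusted p = 0.202 and 0.19). RPL7L1 and RPS4X, the X-linked form of S4, lay between 6.19 and 7.03 and between 5.56 and 6.24, and neither passed in any comparison. The RPS4X probe set also lay low, at percentile 56.8 of mean signal, and how well it follows the mRNA was not tested. RPL32 had the highest mean signal, 13.40, and an RA minus RV control difference of 0.17 (SE 0.11, limma adjusted p = 0.476).

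Genes of Diamond-Blackfan anaemia, an inherited failure of red cell production caused by loss of single ribosomal proteins, were described as a further subset, of which 14 were tested. All 14 had a positive RA minus RV control difference, with a median of 0.27, equal to that of the 58 genes. Their HF medians were 0.17 and 0.16 in RV and -0.03 and 0.01 in RA, with none called. RPS19, the most often affected of them, had differences of 0.35 between control chambers (SE 0.15, limma adjusted p = 0.258) and of 0.17 and 0.31 in RV HF. RPL5, part of the particle that carries 5S ribosomal RNA, had 0.17 between control chambers (SE 0.10, limma adjusted p = 0.409) and 0.16 and 0.13 in RV HF.

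The size of the shared shift differed with the kind of probe set. On Affymetrix arrays the suffixes _s_at, _x_at and _a_at mark probe sets that can match more than 1 transcript, and 48 of the 58 genes were read by one of these. Those 48 genes had a median RA minus RV control difference of 0.29 with 45 positive, and the other 10 genes one of 0.08 with 7 positive. Gene and probe set are mixed in that comparison, so the same genes were read both ways: 25 genes had a probe set without such a suffix, 15 of them a different one from that used above. For those 15 genes the median RA minus RV control difference was 0.27 with the suffixed and 0.10 with the other probe set, and 11 of 15 were smaller with the latter. For RV late HF minus control the medians were 0.16 and 0.06 and 12 of 15 were smaller, and for RV early HF 0.18 and 0.05 with 12 of 15 smaller. RPS20 was 0.65 and 0.40 between control chambers, RPL6 0.29 and -0.05, RPS18 0.31 and 0.27 and RPL34 0.27 and 0.28; these 4 genes were chosen after their values were seen. Because the probe set of highest mean signal was used, the suffixed one was always the brighter of the 2. For the 15 genes its mean signal was 7.14 to 13.19, beside 5.39 to 12.02 for the other, with the filter limit at 5.31. For RPS20 it was 11.97 and 5.39, for RPL6 11.87 and 9.25, for RPS18 12.23 and 12.02 and for RPL34 12.09 and 8.24. The kind of probe set and its signal level were thus not separated. The part of cross-hybridisation or of signal level in these values was not tested.

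**Figure D4:**
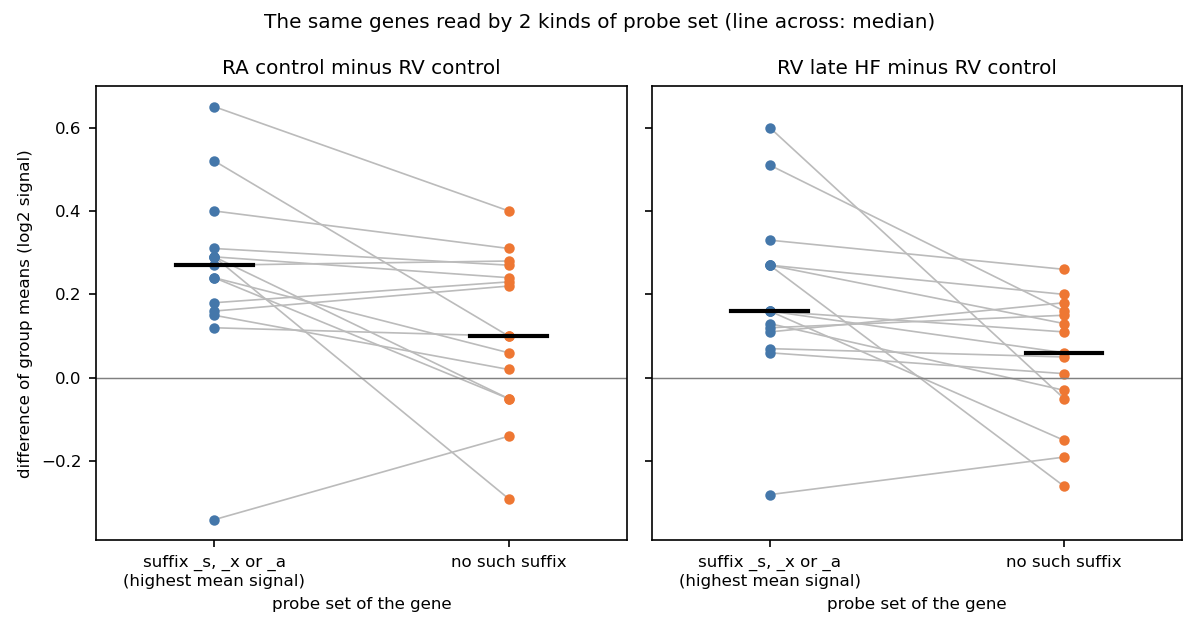
Differences of group means (log2 signal) of the 15 genes that have both a suffixed probe set, used above, and one without the suffix, with a grey line for each gene and a black bar for the median. The medians go from 0.27 to 0.10 for RA minus RV controls and from 0.16 to 0.06 for RV late HF minus control.

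Genes outside the rule that take part in translation were counted by list. Other TOP mRNAs had 16 of 17 positive RA minus RV control differences with a median of 0.25, and 2 passed as higher in RA: EEF1A1, which brings aminoacyl-tRNA to the ribosome (1.31, SE 0.29, limma adjusted p = 0.0219), and NAP1L1, a histone chaperone (0.66, SE 0.17, limma adjusted p = 0.0472). Elongation factors had 7 of 14 positive with a median of 0.00 and EEF1A1 called, and initiation factors 27 of 35 with a median of 0.10 and none called. The next smallest p among these were those of PABPC1, the poly(A) binding protein (0.70, SE 0.19, limma adjusted p = 0.0598), and EEF1G, a subunit of the exchange factor for EEF1A1 (0.36, SE 0.11, limma adjusted p = 0.0935); without RA late HF 3 PABPC1 passed (limma adjusted p = 0.00185). In RV late HF all 17 other TOP mRNAs had a positive difference with a median of 0.12, and none passed. Factors of ribosome biogenesis had medians of -0.01 between control chambers and 0.04 and -0.04 in RV HF, RNA polymerase I genes 0.02, 0.07 and -0.03, and genes of mTORC1 and S6 kinase control 0.03, 0.00 and -0.02, with none called in these 3 comparisons. The smallest p of these lists between control chambers were those of DDX56, a nucleolar helicase (-0.35, SE 0.11, limma adjusted p = 0.0987), UBTF, the upstream binding factor of rDNA transcription (-0.20, SE 0.11, limma adjusted p = 0.38), and AKT1S1, an mTORC1 inhibitor (-0.36, SE 0.11, limma adjusted p = 0.0949), followed by EFL1, TAF1A and PDCD4, of which PDCD4, an inhibitor of EIF4A that S6 kinase targets (0.64, SE 0.22, limma adjusted p = 0.13), passed without RA late HF 3 (limma adjusted p = 0.0265). For RA minus RV in early HF, the 2 genes of smallest p in each translation list included called ones. POLR1E (-0.77, limma adjusted p = 0.00675) and EIF4EBP1 (-0.80, 0.0197) passed as lower. EIF4G3 (1.16, 0.0111), EIF5A2 (0.59, 0.0138), EEF1A1 (1.24, 0.0199), PABPC1 (0.77, 0.0261) and NPM1 (0.61, 0.0301) passed as higher. NOP14, TAF1D and PDCD4 did not pass. Of all genes 2.59% passed as lower and 3.00% as higher.

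The mitochondrial ribosomal proteins, which build the separate ribosome that translates mitochondrial DNA's messages, had medians of the other sign. Of 73 genes, 10 had a positive RA minus RV control difference, with a median of -0.19, and 2 passed as lower in RA, MRPL32 (-0.73, SE 0.12, limma adjusted p = 0.00275) and MRPS10 (-0.81, SE 0.19, limma adjusted p = 0.0293). In early HF 7 of 73 were positive in RV with a median of -0.18, and 14 of 73 in RA with a median of -0.14, where MRPL48 passed as lower (-0.66, SE 0.13, limma adjusted p = 0.0338). Without RA late HF 3, 2 of 73 passed as lower in RV early HF, MRPL48 (limma adjusted p = 0.022) and MRPL12 (0.0476), and 4 in RA early HF. Of all genes 0.146% and 1.37% then passed as lower in these 2 comparisons. In RV late HF 15 of 73 were positive, with a median of -0.08. Of all genes 44.7% were positive between control chambers, 47.0% in RV and 45.6% in RA early HF, and 46.6% in RV late HF. With all arrays 1.07% of all genes passed as lower between control chambers and 0.455% in RA early HF. The difference between the cytosolic and mitochondrial sets was not tested.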

How the data were processed

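Values were log2 signal per probe set as deposited by the authors, from total RNA on the Canine_2 array; the submitters' processing notes name MAS5, with no version. Of 43035 probe sets, 111 controls and the 40% of lowest mean signal (5.31 or less) were left out, and 25752 were tested. Each was fitted with limma 3.58.1 in R 4.3.3: 1 mean for each of 6 groups, 18 arrays, 12 residual degrees of freedom, a trended prior, two-sided tests, Benjamini-Hochberg adjustment over all 25752 and a threshold of 0.05. The fit was tested on simulated data. The number of arrays limits the precision. Shares of all genes use 10988 genes, 1 probe set each.

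The genes and lists were chosen with earlier results of these data known. Genes named were those called, the 2 of smallest p in each comparison, duplicate forms and their partners, the stalk, 5S particle, RPS19, RPS28, RPL10A, RPS4X and RPS19BP1, extremes of signal and spread, and, for some of the comparisons, the genes of smallest p in each list. Symbols came from the platform annotation, and 56 of the 59 genes matched RefSeq by Entrez ID.

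Deviations from the group mean of same-numbered RA and RV arrays correlated by 0.24 to 0.42 in controls, 0.15 to 0.26 in early HF and -0.42 to 0.15 in late HF, so in controls and early HF, not in late HF, a shared number was taken as a pair. Arrays of the same number were not paired across stages within a chamber, where these correlations ran from -0.33 to 0.36. The RA with RV pairs are therefore an assumption, which these correlations do not establish. Alternatives covered the signal filter, scaling, choice of probe set, variance prior, array weights, groups in the fit, replicate blocks and leaving out each array. Figures used Python 3.11.15, numpy 2.4.6, pandas 2.3.3 and matplotlib 3.10.9.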

Additional observations from a re-analysis of the deposited data

How the results depend on the processing

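Of 206 alternative counts called 196 stayed within 1.5 times the reported count, and of 206 alternative medians 204 moved by less than the SD between arrays. Of the medians 13 had the other sign, in 5 comparisons whose reported median was at most 0.12. Under other scalings the median was 0.21 to 0.29 for RA minus RV controls, 0.14 to 0.19 for RV early HF and 0.11 to 0.21 for RV late HF. Without the probe sets that may cross-hybridise, 25 genes were left and the median was 0.05 for RV late HF minus control and 0.10 for RA minus RV controls. With array weights limma called 1 gene in RA early HF minus control, 19 in RA minus RV controls and 1 in RA minus RV late HF (4.96%, 9.63% and 3.03% of all probe sets called). Fitted on only the groups compared it called 2, 24 and 2 in RA early HF minus control, RA minus RV controls and RA minus RV early HF (2.81%, 8.40% and 5.74%). With the RA and RV replicate block it called 1 in RA minus RV controls (3.74%), and this block, like that of the same number within a chamber, changed no other count. Leaving out 1 array at a time gave 0 to 1 called in RA early HF minus control, 0 to 10 in RA minus RV controls, 0 to 1 in RA minus RV late HF and 1 in RA minus RV early HF; the highest values all came without RA late HF 3, and the medians of the RA late HF comparisons changed sign without RA late HF 1.

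Of 563 alternative values of named genes, 542 kept direction and call, 15 passed where the reported value did not, 0 lost a call and 6 reversed. RPL3L in RA late HF minus control was 0.09 as the mean of its probe sets and from -0.45 to 0.19 leaving out 1 array at a time (0.01 without RA control 2, 0.12 without RA late HF 1 and 0.19 without RA late HF 2); its late HF interaction was -0.06 to 0.58, the lowest without RA late HF 3. RPL17 in RV late HF was -0.05 without the probe sets that may cross-hybridise. Beyond the effects of construction (fewer arrays or genes), the cause was not tested. Of the 58 genes 43 lie in the highest 1% of signal, where saturation was not tested.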
